A study of Homo sapiens with 4 samples.

Results

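The genes described here are 39 symbols of the unfolded protein response and the integrated stress response, taken by name from a list of endoplasmic reticulum (ER) chaperones, stress sensors and ATF4 targets. All 39 were among the 24424 gene symbols counted. The rule uses names only, and the list was drawn up with earlier results of these data known. RNA sequencing was done on BEAS-2B cells, an immortalized line of human bronchial epithelial cells labelled as wild type in genotype, under 4 conditions with 1 library each. Control cells had no treatment. LPS cells received lipopolysaccharide, the outer membrane glycolipid of gram-negative bacteria, for 2 hr. WT PDZ+LPS cells and mut PDZ+LPS cells were first given a peptide for 24 hr and then LPS for 2 hr. The WT PDZ peptide was built from the first PDZ domain of the tight junction scaffold ZO-1 with a TAT stretch for cell entry, and the mut PDZ peptide carries alanines in place of a pair of neighbouring glycines. No library here had peptide without LPS, so the effect of either peptide alone cannot be read from these values.

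The ER folds secreted and membrane proteins with chaperones such as BiP and with protein disulfide isomerases. When unfolded proteins build up, the membrane sensors IRE1, PERK and ATF6 are activated, and XBP1, ATF4 and ATF6 then switch on chaperone, degradation and amino acid genes. PERK and 3 other kinases act through eIF2, whose phosphorylation lowers general translation while ATF4 mRNA is translated more, which is why this arm is called the integrated stress response. Toll-like receptor signalling from LPS is known to engage IRE1 and XBP1 in some cells without the rest of the response.

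The libraries held 19682929 to 25155647 counts, the fewest in mut PDZ+LPS. Levels below are normalized counts, that is, counts divided by the geometric size factor of the library (0.851 to 1.15), and differences are log2 fold changes on normalized counts plus 1. With 1 library per condition no test was possible and no difference has a replicate check. The 95% intervals are exact binomial counting intervals and cover counting error only. A gene was called when it differed at least 2-fold and reached 16 normalized counts in either library of the pair. Corrected values are log2 fold changes after a trend over transcript length and GC content across all genes was subtracted, and they are given for genes of the mut PDZ+LPS library, which showed such a trend, where they turn a sign, end a call or move a value most. Where values are given with WT PDZ or with mut PDZ, LPS was always present, and shares of genes averaging 100 or more normalized counts over the 4 libraries are given as a background. Keratins 7, 8 and 18 stood at 12657 to 48326 raw counts per library, the leukocyte marker PTPRC and the fibroblast markers COL3A1 and LUM were at 0 in every library, and EPCAM had only 37 to 51. The other 3 epithelial markers were KRT5 at 1166 to 1408 raw counts, CDH1 at 605 to 634 but 308 in mut PDZ+LPS (-0.65 against LPS), and KRT19 at 144 to 216 but 87 in WT PDZ+LPS, which was called lower in WT PDZ+LPS/Control at -1.09. Of the markers of other cell types, 2 of 7 for leukocytes (CD14 at 362 to 507 and CD68 at 304 to 358 raw counts) and 1 of 6 for fibroblasts (COL1A1 at 331 to 449) averaged 16 normalized counts or more. All 6 LPS response genes checked (NFKBIA, TNFAIP3, CXCL8, IL6, CCL20 and ICAM1) were called higher in LPS than in Control, with a median log2 fold change of 4.60. In RNA of whole cultures, fewer cells that express a gene and less RNA per cell cannot be told apart.

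Per kilobase of transcript, 5 chaperones were the most abundant of the 39, and chaperones stood from the first to the 33rd place. CALR (calreticulin) had the highest mean over the 4 libraries at 13257 normalized counts per kb, followed by HSP90B1 at 9327, P4HB at 7923, CANX at 7625 and HSPA5 at 5843. The lowest chaperones were DNAJC3 at 290.1 and DNAJB9 at 149.8. The first gene outside the chaperones was DDIT4 at 3963, level with ATF4 at 3950. At the low end, EIF2AK3 (PERK) stood at 89.6, CHAC1 at 66.3 and ERN1 (IRE1 alpha) at 47.1 normalized counts per kb. All 39 genes averaged 100 or more normalized counts, as did 10859 genes in all.

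The promoters of several of these genes carry elements through which the response is known to work, and the matches are shown for the genes whose values follow. RefSeq windows on GRCh38.p14, from 250 bases before to 50 bases after the annotated start, were matched for 37 of the 39 genes. No window was matched for PDIA3 and SEC24D. Both strands were searched for the ER stress response element (CCAAT, any 9 bases, then CCACG), the unfolded protein response element (TGACGTGG) and the C/EBP-ATF response element (TGATGNAAN). The elements were picked because they are known for this response, so the shares below are a description and not a test. Each count over all genes includes the members. The ER stress response element was in 7 of the 37 genes, against 25 of 27305 genes with a window (0.0769% of 35116 windows). By role it was in 5 of 12 chaperones and 0 of 9 ATF4 targets. The C/EBP-ATF element was in 2 of 9 ATF4 targets, in HERPUD1 and in 0 of 12 chaperones, against 1215 of 27305 genes (3.61% of windows). The unfolded protein response element was in HYOU1, against 253 of 27305 genes (0.729% of windows). No overlap of one element with another was found in these genes. The matches shown lay 34 to 225 bases before the start. The windows printed for ASNS, CHAC1, CANX and HSP90B1 also overlap an exon of another transcript of the same gene in GENCODE 29, and the first of HSP90B1 one of the pseudogene TTC41P. The letters are matches to these motifs only, and no binding was measured.

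In the lines that follow, each match is written 5′ to 3′ on the strand where it reads, in lower case with the fixed bases of the element in capitals and 5 bases to each side. Coordinates are on GRCh38.p14.
HSPA5, ER stress response element, chr9:125241386-125241414, minus strand: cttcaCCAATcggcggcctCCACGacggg
HSP90B1, ER stress response element, chr12:103930211-103930239, plus strand: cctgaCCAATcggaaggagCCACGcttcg
HSP90B1, ER stress response element, chr12:103930316-103930344, minus strand: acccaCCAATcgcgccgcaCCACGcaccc
CALR, ER stress response element, chr19:12938379-12938407, minus strand: accgaCCAATgatggtcgaCCACGcgtgg
CANX, ER stress response element, chr5:179698773-179698801, plus strand: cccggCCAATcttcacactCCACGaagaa
PDIA6, ER stress response element, chr2:10812848-10812876, minus strand: ccggaCCAATgagccgcagCCACGgcttg
CRELD2, ER stress response element, chr22:49918549-49918577, minus strand: atggcCCAATccgagttcgCCACGagagg
XBP1, ER stress response element, chr22:28800598-28800626, minus strand: gctggCCAATcgcggagggCCACGaccgt
HYOU1, unfolded protein response element, chr11:119057381-119057398, minus strand: ccccgTGACGTGGtccaa
ASNS, C/EBP-ATF response element, chr7:97872463-97872481, minus strand: aggcaTGATGaAActtccc
CHAC1, C/EBP-ATF response element, chr15:40953256-40953274, minus strand: aggagTGATGcAAcggcag
HERPUD1, C/EBP-ATF response element, chr16:56931960-56931978, minus strand: cgggcTGATGcAAcccgcc

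**Figure D1:**
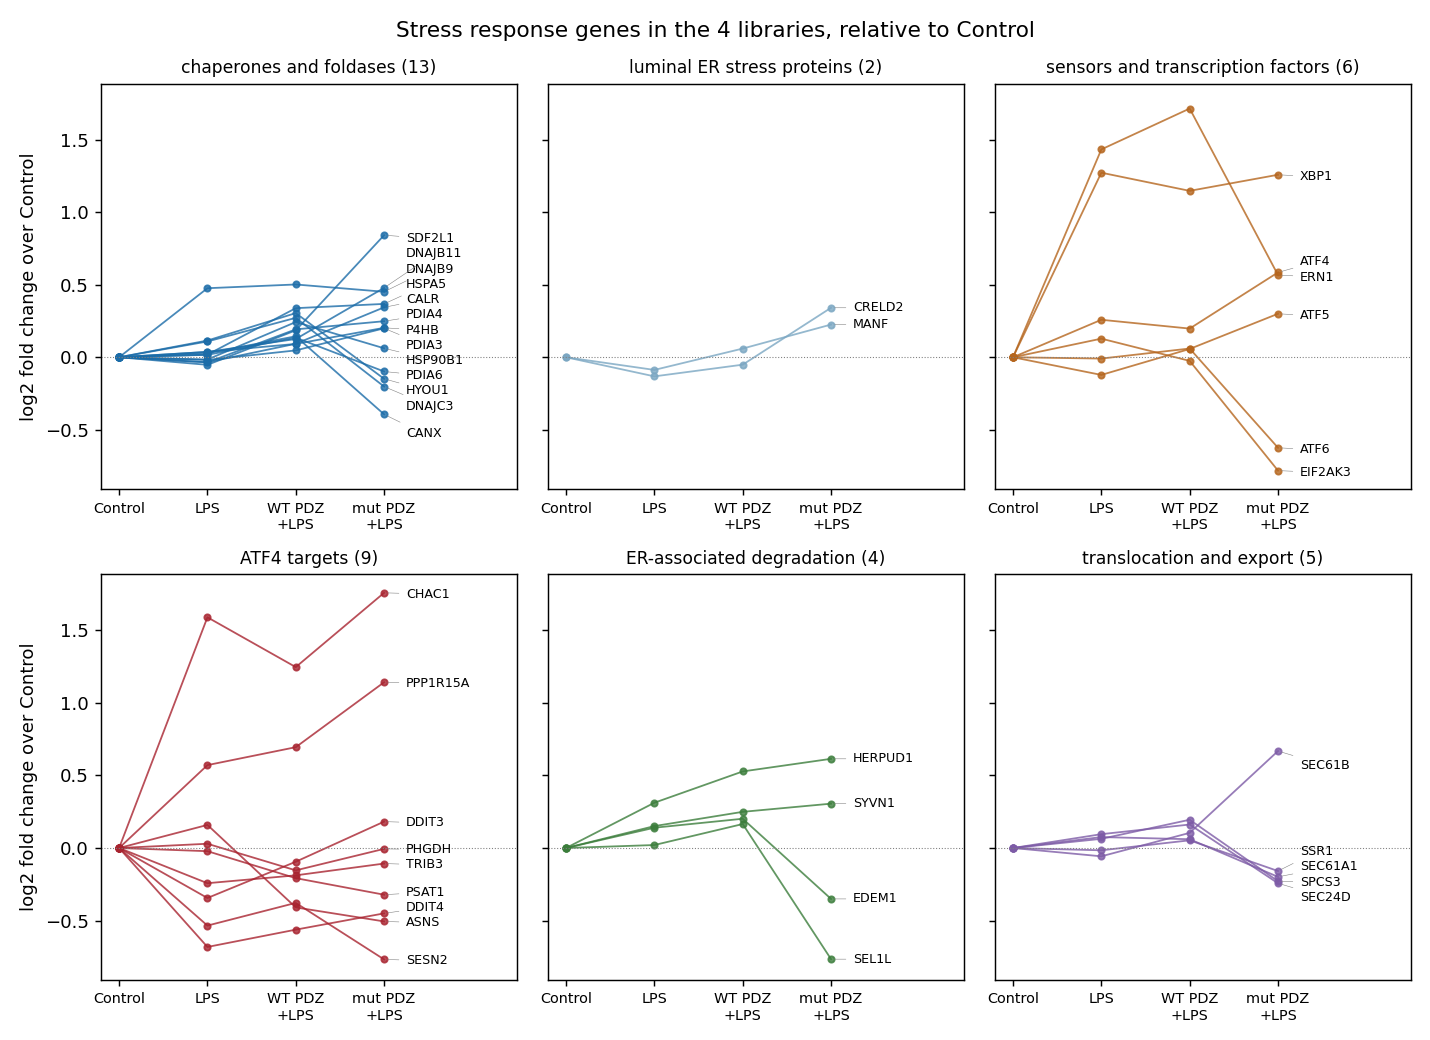
Log2 fold change over Control (vertical axis) of each of the 39 genes in the LPS library and the libraries of both peptides, in 1 panel per role with the number of genes in brackets, each point being 1 library. ERN1, XBP1 and CHAC1 stand above 1 with LPS, the chaperones reach at most 0.50 in LPS and WT PDZ+LPS, and all roles spread in mut PDZ+LPS.

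Between LPS and Control, 3 of the 39 genes were called, all higher, while 4.87% of the 13277 genes tested were called in either direction and 3.46% higher. The 3 were ERN1, XBP1 and CHAC1, that is, the IRE1 sensor, its substrate and an enzyme that degrades glutathione, and the chaperones were not among them. The median log2 fold change over the 39 was 0.027, against -0.0010 over the 13072 genes averaging 16 normalized counts or more.

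ERN1 encodes IRE1 alpha, the kinase and endoribonuclease that splices XBP1 mRNA (GRCh38 chr17:64039142-64130819, minus strand). It had 175 normalized counts in Control, 474 under LPS, 577 with WT PDZ and 260 with mut PDZ. The 3 LPS-treated libraries were all above Control, and mut PDZ+LPS was nearest to it. LPS/Control was 1.43 (interval 1.20 to 1.68), a 2.70-fold difference. WT PDZ+LPS/LPS was 0.28 (0.11 to 0.46) and mut PDZ+LPS/LPS was -0.87 (-1.10 to -0.64). The value in WT PDZ+LPS/LPS was reached by 2.38% of genes averaging 100 or more. Between mut PDZ+LPS and WT PDZ+LPS ERN1 differed by -1.15 and was the only one of the 39 genes called, where 2.14% of 13372 genes were called lower. The corrected value was -0.72, which ends that call.

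XBP1, the transcription factor that IRE1 activates by splicing its mRNA (chr22:28794555-28800597, minus strand), had 1574 normalized counts in Control, 3803 under LPS, 3487 with WT PDZ and 3766 with mut PDZ. All 3 LPS-treated libraries were above Control, within 3487 to 3803. LPS/Control was 1.27 (1.19 to 1.35), a 2.42-fold difference. WT PDZ+LPS/LPS was -0.13 (-0.19 to -0.06) and mut PDZ+LPS/LPS was -0.014 (-0.08 to 0.05), with -0.21 corrected. The counts are per gene and do not separate spliced from unspliced XBP1 mRNA, so the activity of IRE1 was not measured. Its promoter window holds the ER stress response element shown above.

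The other sensors were close to Control with LPS alone. EIF2AK3, the gene of the eIF2 kinase PERK, had 455 normalized counts in Control, 498 under LPS, 447 with WT PDZ and 264 with mut PDZ. ATF6, the sensor that is released from the membrane by proteolysis, had 1469, 1460, 1532 and 953 in the same order. Both were lowest in mut PDZ+LPS, with mut PDZ+LPS/LPS at -0.91 (-1.14 to -0.69) for EIF2AK3 and -0.61 (-0.74 to -0.49) for ATF6. Their LPS/Control values were 0.13 (-0.05 to 0.31) and -0.0090 (-0.11 to 0.09), and those of WT PDZ+LPS/LPS were -0.15 (-0.34 to 0.03) and 0.069 (-0.03 to 0.17). Each of these intervals included 0.

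ATF4, the effector of the eIF2 arm, is controlled mainly at translation, so its mRNA is a partial view of it. It had 6586 normalized counts in Control, 7878 under LPS, 7553 with WT PDZ and 9879 with mut PDZ. LPS/Control was 0.26 (0.21 to 0.30), WT PDZ+LPS/LPS was -0.061 (-0.11 to -0.02) and mut PDZ+LPS/LPS was 0.33 (0.28 to 0.37), with 0.069 corrected. None of these reached 1.5-fold. ATF5, a related factor that is also translated more under stress, had 279, 256, 290 and 343 normalized counts in the same order. Its LPS/Control value of -0.12 (-0.36 to 0.12) and its WT PDZ+LPS/LPS value of 0.18 (-0.06 to 0.42) included 0, and mut PDZ+LPS/LPS was 0.42 (0.18 to 0.67), with 0.097 corrected. Exons of ATF5 overlap those of NUP62 on the opposite strand, which had 3049 to 3424 raw counts, and whether counting used strand is not given in the sources used here, so reads of the 2 genes cannot be told apart.

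The 13 chaperones and foldases differed little between LPS and Control. Their median was 0.018, and 8 were higher and 5 lower (51.0% of genes averaging 100 or more were higher). None of the 13 was called, where 4.87% of genes tested were. Of their intervals 7 included 0, as did those of 6893 of 13072 genes, a background that is not matched for depth. When libraries were scaled by total counts, 1 was higher and 12 were lower, and this scaling shifted the median of all genes to -0.13. HSPA5, which encodes BiP, the main HSP70 of the ER, had 19995 normalized counts in Control and 20248 in LPS, a log2 fold change of 0.018 (-0.0088 to 0.045). DNAJB9, a J-domain cofactor of BiP and a known XBP1 target, was the highest of the role in LPS/Control. It had 314 normalized counts in Control, 437 under LPS, 445 with WT PDZ and 430 with mut PDZ, so the 3 LPS-treated libraries lay together above Control. Exons of DNAJB9 overlap those of THAP5 (522 to 848 raw counts) and PNPLA8 (954 to 1340) on the opposite strand. DNAJB9 itself had 361 to 465 raw counts, and reads cannot be told apart where the genes overlap. LPS/Control was 0.48 (0.28 to 0.68) for DNAJB9, a size that 6.57% of genes averaging 100 or more reached.

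With the WT PDZ peptide the chaperones were all slightly above LPS. In WT PDZ+LPS/LPS 13 of 13 were higher, against 53.5% of the 10859 genes averaging 100 or more, and 12 of 13 had an interval above 0, against 13.4%. Counting intervals narrow as counts rise, and most chaperones stood far above 100 normalized counts. The 13.4% is therefore not matched for depth, and the 2 shares cannot be compared directly. The chaperone median was 0.13, a difference of less than 1.5-fold in every member. None of the 39 genes was called in this comparison, where 1.37% of 13236 genes were called. The count of 13 higher was obtained with each of the 4 scalings and after the transcript length and GC trend was removed. These settings differ little in this comparison. Under the 4 scalings the median of all genes stayed between -0.0014 and 0.0075, and Spearman's rho with length was 0.064. The lowest chaperone was at 0.026, so a sign could hardly turn and the agreement adds no separate support. The epithelial marker KRT19 was also lower in this comparison, at -0.91, and its part in the chaperone values was not tested. Since the list holds genes that are known to be regulated together, its members are not independent of each other, and 1 library per condition gives no estimate of how often a fresh culture would differ as much.

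HSPA5 was the highest chaperone in WT PDZ+LPS/LPS. It had 25283 normalized counts with WT PDZ and 25805 with mut PDZ, so both peptide libraries stood above the 20248 of LPS. The differences from LPS were 0.32 (0.29 to 0.35) with WT PDZ, which 1.58% of genes averaging 100 or more reached, and 0.35 (0.32 to 0.38) with mut PDZ, which 15.8% reached. HSP90B1 (GRP94), the HSP90 of the ER, had 25287 normalized counts in Control, 25015 under LPS, 29923 with WT PDZ and 26396 with mut PDZ. It was highest with WT PDZ, at 0.26 (0.23 to 0.28) over LPS, and with mut PDZ it was 0.078 over LPS. The 2 genes carry 3 of the ER stress response elements shown above.

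Of the remaining chaperones, SDF2L1, a small lumenal protein that works with DNAJB11, stood out in mut PDZ+LPS. It had 493 normalized counts in Control, 475 under LPS, 560 with WT PDZ and 884 with mut PDZ. Its LPS/Control value of -0.052 (-0.23 to 0.12) was the lowest of the role, WT PDZ+LPS/LPS was 0.24 (0.06 to 0.41), and mut PDZ+LPS/LPS was 0.89 (0.73 to 1.06), the highest of the role. CANX (calnexin), the membrane lectin chaperone, was the lowest of the role in mut PDZ+LPS/LPS. It had 33438, 34081, 36964 and 25454 normalized counts in the same order, with 0.027 (0.0067 to 0.048) for LPS/Control, and against LPS 0.12 (0.10 to 0.14) with WT PDZ and -0.42 (-0.45 to -0.40) with mut PDZ. DNAJB9 had the lowest WT PDZ+LPS/LPS value of the 13, 0.026 (-0.17 to 0.22), and was at -0.024 in mut PDZ+LPS/LPS. HSPA5 and SDF2L1 were thus higher with either peptide than with LPS alone, and CANX lay on opposite sides of LPS with the 2 peptides.

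In WT PDZ+LPS/LPS the other 8 chaperones ran from 0.055 to 0.23. PDIA4, a disulfide isomerase that is a known target of ATF6, was at 0.23, HYOU1, the large HSP70-like nucleotide exchange factor of BiP, at 0.19, DNAJC3, a lumenal J-domain protein, at 0.16, and the glycoprotein chaperone CALR at 0.13. The disulfide isomerases PDIA6 and PDIA3 were at 0.12 and 0.066, DNAJB11, a J-domain partner of BiP, at 0.089, and P4HB, the founding disulfide isomerase, at 0.055. In mut PDZ+LPS/LPS the same genes spread to both sides of 0, from DNAJB11 at 0.44 and CALR at 0.38 to HYOU1 at -0.26 and DNAJC3 at -0.31. Corrected, these were 0.36, 0.15, -0.14 and -0.017, so the spread was narrower. MANF and CRELD2, lumenal and secreted proteins induced by ER stress, were at 0.15 and 0.081 in WT PDZ+LPS/LPS and at 0.31 and 0.47 in mut PDZ+LPS/LPS (-0.085 and 0.030 corrected), and both were below Control with LPS alone, at -0.087 and -0.13, with intervals that included 0. Exons of CRELD2 overlap those of ALG12 (710 to 850 raw counts) on the opposite strand, and reads of the 2 cannot be told apart there.

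**Figure D2:**
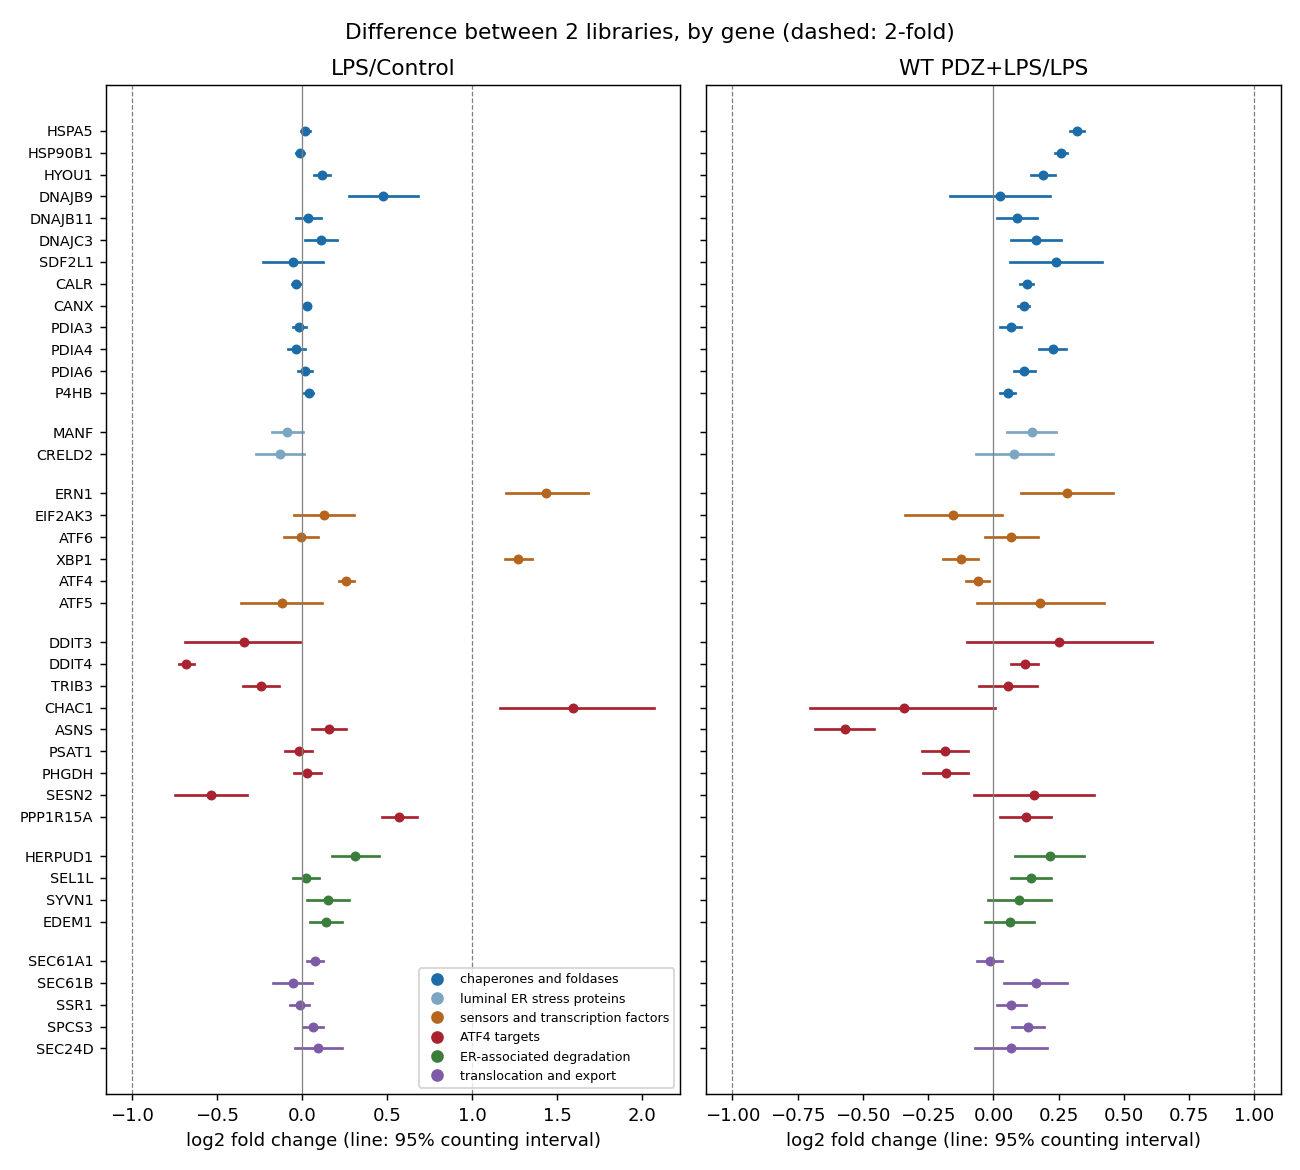
Log2 fold change (horizontal axis) of each gene in LPS/Control (left) and WT PDZ+LPS/LPS (right), coloured by role, with the 95% counting interval as a line and 2-fold marked by dashes, from 1 library per condition. On the left ERN1, XBP1 and CHAC1 lie beyond 2-fold, and on the right the 13 chaperones all lie to the right of 0 while ASNS lies at -0.57.

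The 9 ATF4 targets did not share a direction. In LPS/Control 4 were higher and 5 lower, with a median of -0.022 and a range from -0.68 to 1.59. CHAC1, which degrades glutathione, was the highest (chr15:40952962-40956519, plus strand). It had 49.6 normalized counts in Control, 151 under LPS, 119 with WT PDZ and 170 with mut PDZ, so all 3 LPS-treated libraries were above Control by more than 2-fold. LPS/Control was 1.59 (1.17 to 2.07), a 3.01-fold difference that rests on 57 raw counts in Control. WT PDZ+LPS/LPS was -0.34 (-0.70 to 0.0056) and mut PDZ+LPS/LPS was 0.17 (-0.16 to 0.50), and both intervals included 0.

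PPP1R15A (GADD34), the phosphatase subunit that removes phosphate from eIF2, was the other target above Control in every LPS-treated library (chr19:48872392-48876057, plus strand). It had 1097 normalized counts in Control, 1630 under LPS, 1776 with WT PDZ and 2423 with mut PDZ. LPS/Control was 0.57 (0.47 to 0.68), WT PDZ+LPS/LPS was 0.12 (0.03 to 0.22) and mut PDZ+LPS/LPS was 0.57 (0.48 to 0.66), the highest of the role. In mut PDZ+LPS/Control it reached 1.14 and was called together with XBP1 and CHAC1, where 5.13% of 13434 genes were called higher. The corrected value of PPP1R15A was 0.95, which ends its call, while XBP1 at 1.13 and CHAC1 at 1.37 stayed above 2-fold. In WT PDZ+LPS/Control the 3 genes called were again ERN1, XBP1 and CHAC1, where 3.28% of 13284 genes were called higher. These comparisons share the Control library with LPS/Control.

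DDIT4 (REDD1), an inhibitor of mTORC1 that glucocorticoid, hypoxia and p53 also induce, was the lowest target in LPS/Control. It had 9139 normalized counts in Control, 5695 under LPS, 6186 with WT PDZ and 6687 with mut PDZ, so all 3 LPS-treated libraries were below Control. LPS/Control was -0.68 (-0.73 to -0.64), which 1.16% of genes averaging 100 or more reached in that direction, and the differences from LPS were 0.12 (0.07 to 0.17) with WT PDZ and 0.23 (0.18 to 0.28) with mut PDZ. SESN2 (sestrin 2), another inhibitor of mTORC1, was at -0.53 (-0.75 to -0.33) in LPS/Control. TRIB3, a pseudokinase that restrains AKT and ATF4, was at -0.24 (-0.35 to -0.14).

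DDIT3 (CHOP), the transcription factor most often read as a sign of terminal ER stress, was not above Control with LPS. It had 153 normalized counts in Control, 120 under LPS, 143 with WT PDZ and 174 with mut PDZ. LPS/Control was -0.34 (-0.69 to -0.011), WT PDZ+LPS/LPS was 0.25 (-0.10 to 0.61), the highest of the role, and mut PDZ+LPS/LPS was 0.53 (0.18 to 0.88). Its exons overlap those of MARS on the opposite strand, a gene with 3098 to 5147 raw counts against 128 to 176 for DDIT3, and reads of the 2 cannot be told apart where they overlap.

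The amino acid synthesis genes were lower in WT PDZ+LPS than in LPS. ASNS, asparagine synthetase, had 1387 normalized counts in Control, 1549 under LPS, 1044 with WT PDZ and 976 with mut PDZ, so both peptide libraries lay below both others. LPS/Control was 0.16 (0.06 to 0.26). WT PDZ+LPS/LPS was -0.57 (-0.68 to -0.46), the lowest of the 39 genes and a value that 0.249% of genes averaging 100 or more reached, and mut PDZ+LPS/LPS was -0.67 (-0.79 to -0.55), which 6.24% reached. PSAT1 and PHGDH, enzymes of serine synthesis, were likewise below LPS in WT PDZ+LPS, by log2 fold changes of -0.19 (-0.27 to -0.10) and -0.18 (-0.27 to -0.10). With mut PDZ they were at -0.30 (-0.39 to -0.21) and -0.035 (-0.12 to 0.05), or -0.40 and -0.22 corrected, and in LPS/Control at -0.022 and 0.029 with intervals that included 0. ASNS holds the C/EBP-ATF element shown above.

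The median of the 13 chaperones and that of the 9 ATF4 targets were set side by side in each comparison. In LPS/Control they were 0.018 and -0.022, in WT PDZ+LPS/LPS 0.13 and 0.054, and in mut PDZ+LPS/LPS 0.17 and 0.14. The chaperone median minus the target median was 0.040, 0.074 and 0.030, and over all genes the medians were -0.0010, 0.0075 and -0.023. The roles therefore differed less in their medians than in their spread, which in WT PDZ+LPS/LPS ran from 0.026 to 0.32 for the chaperones and from -0.57 to 0.25 for the targets. Of the targets in that comparison 5 were higher and 4 lower. Without DDIT4, SESN2 and PPP1R15A, which other pathways also induce, the target median in WT PDZ+LPS/LPS was -0.18. Those genes were all above LPS there, at 0.12, 0.16 and 0.12, so the lower median follows from which members were left out. The same removal gave 0.0037 in LPS/Control and 0.050 in mut PDZ+LPS/LPS. Between the peptides (mut PDZ+LPS/WT PDZ+LPS) the medians were 0.029 for the chaperones and 0.11 for the targets, and both turned to the other side of 0 when corrected, at -0.091 and -0.17.

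**Figure D3:**
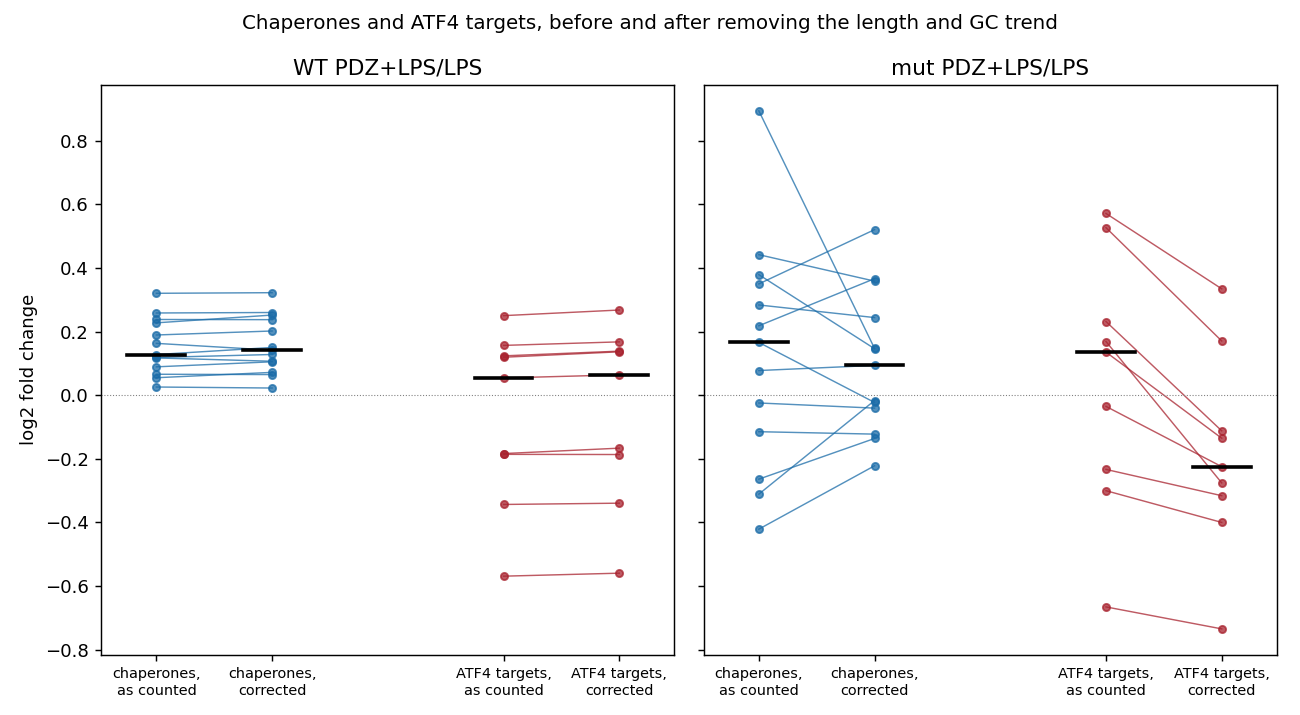
Log2 fold change (vertical axis) of the 13 chaperones (blue) and 9 ATF4 targets (red) in WT PDZ+LPS/LPS (left) and mut PDZ+LPS/LPS (right), as counted and after the transcript length and GC trend was removed, with each gene joined by a line and the median as a black bar. On the left the values barely move, and on the right the ATF4 target median goes from 0.14 to -0.22 while the chaperone median goes from 0.17 to 0.094.

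None of the 39 genes was called in mut PDZ+LPS/LPS, where 3.95% of 13378 genes were, and at 1.5-fold 2 were higher (SDF2L1 and SEC61B) and 5 lower (ERN1, EIF2AK3, ATF6, SEL1L and ASNS), where 7.89% and 9.80% of genes were. The 2 higher genes have short transcripts and 4 of the 5 lower ones have long transcripts.

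Across the whole mut PDZ+LPS library, differences followed transcript length. Across 12371 genes with a transcript length, length and log2 fold change had a Spearman's rho of -0.59 in mut PDZ+LPS/LPS, 0.064 in WT PDZ+LPS/LPS and 0.15 in LPS/Control, a description across genes, which are not independent and share the libraries. Among the 39, 8 of 9 genes with a transcript under 2000 nt were higher in mut PDZ+LPS than in LPS (median 0.38), and 0 of 11 with a transcript over 4000 nt were (median -0.42). Of genes of any length averaging 100 or more, 45.8% were higher. In the shortest of 10 bins of length the quartiles of all genes were 0.22 and 0.58, and in the longest -0.71 and -0.20. In WT PDZ+LPS/LPS 7 of the 9 short and 10 of the 11 long members were higher. The library with the fewest counts was also the one with this trend. The part of the trend in the difference of any single gene was not tested.

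SDF2L1, with a transcript of 865 nt, went from 0.89 to a corrected 0.15 in mut PDZ+LPS/LPS, and SEC61B, with 587 nt, from 0.73 to 0.24. At the long end ERN1 (7876 nt) went from -0.87 to -0.46, SEL1L (7925 nt) from -0.79 to -0.36, and ATF6 (7496 nt) from -0.61 to -0.20. These genes stayed on their side of LPS but moved toward it. EIF2AK3 (4646 nt) was -0.91 as counted and -0.67 corrected, and ASNS (2356 nt) was -0.67 and -0.73. HSPA5 (3908 nt) went from 0.35 to 0.52 and was the highest of the 39 after correction. The call of ERN1 between the peptide libraries was lost, at a corrected -0.72.

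After correction 7 of 13 chaperones and 2 of 9 ATF4 targets were higher in mut PDZ+LPS than in LPS, with medians of 0.094 and -0.22, a difference of 0.32 against 0.030 as counted. The 2 targets above 0 were PPP1R15A at 0.33 and DDIT3 at 0.17. CHAC1 went from 0.17 to -0.28, TRIB3 from 0.14 to -0.14, DDIT4 from 0.23 to -0.11 and SESN2 from -0.23 to -0.32. The sign of several ATF4 targets in this comparison thus depends on whether the trend is removed. Of all genes with a length, 5562 of 12371 were higher after correction.

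**Figure D4:**
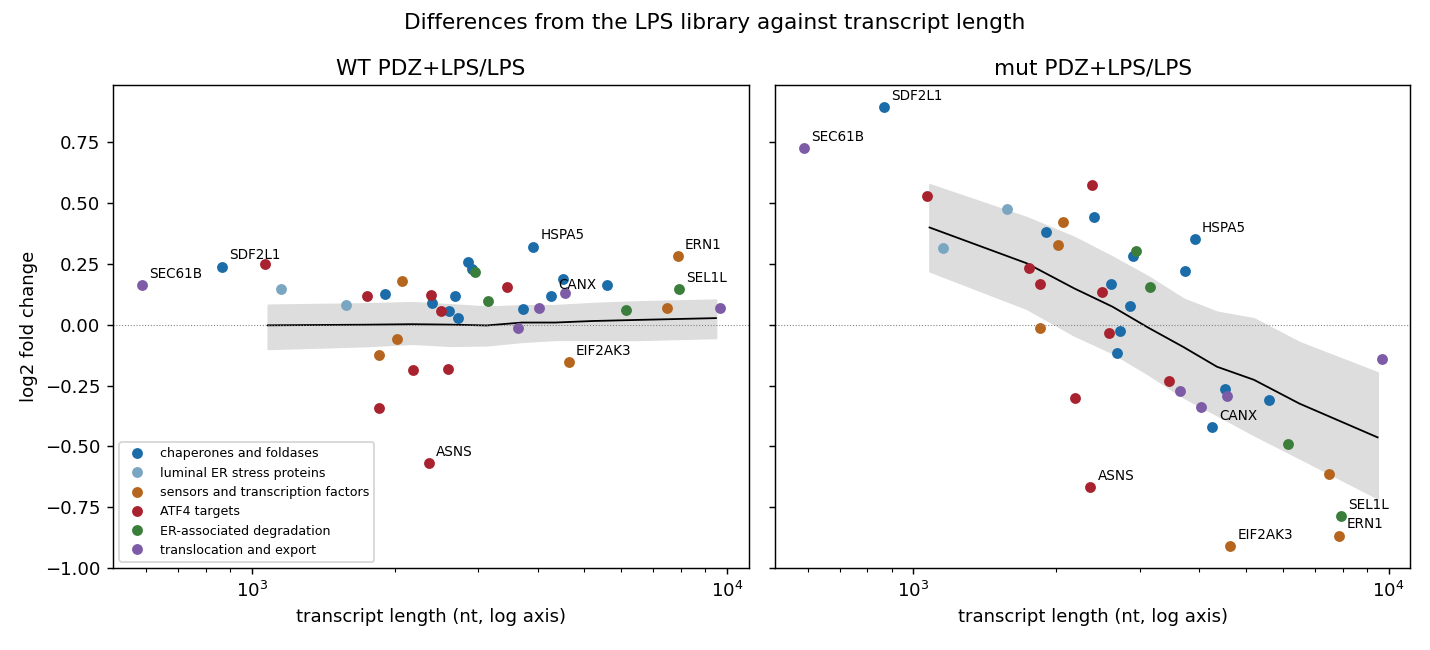
Log2 fold change (vertical axis) against transcript length (nt, log axis) in WT PDZ+LPS/LPS (left) and mut PDZ+LPS/LPS (right), each point being 1 of the 39 genes coloured by role, with the black line and grey band giving the median and quartiles of all genes in 10 bins of length. On the right the line slopes from 0.40 in the shortest bin to -0.46 in the longest while ASNS and EIF2AK3 lie below it and HSPA5 above.

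Of the 4 degradation genes, 3 had intervals above 0 in LPS/Control, as did 3402 of 13072 genes. None of the 4 was called, where 4.87% of genes tested were. HERPUD1, a membrane protein of ER-associated degradation that is induced by all arms of the response, was the highest of its role with LPS. It had 683 normalized counts in Control, 848 under LPS, 986 with WT PDZ and 1047 with mut PDZ, so Control was the lowest library. LPS/Control was 0.31 (0.17 to 0.45), WT PDZ+LPS/LPS 0.22 (0.08 to 0.35) and mut PDZ+LPS/LPS 0.30 (0.17 to 0.44). SEL1L, the adaptor of the ubiquitin ligase HRD1, had 2475, 2511, 2776 and 1455 normalized counts in the same order. It was close to Control with LPS, at 0.021 (-0.06 to 0.10), and at 0.14 (0.07 to 0.22) with WT PDZ over LPS, and it was lowest with mut PDZ, at -0.79 (-0.89 to -0.69).

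SYVN1, which encodes HRD1, was at 0.15 in LPS/Control and stood 0.098 over LPS with WT PDZ and 0.15 with mut PDZ (0.042 corrected). Its exons overlap 356 nt of FAU, a gene with 6311 to 8480 raw counts on the same strand. They also overlap 158 nt of MRPL49, with 1305 to 2292 raw counts on the opposite strand. EDEM1, a lectin that hands misfolded glycoproteins to degradation, had 1608 normalized counts in Control, 1772 under LPS, 1850 with WT PDZ and 1261 with mut PDZ. It was at 0.14 (0.05 to 0.23) in LPS/Control, at 0.062 (-0.03 to 0.15) in WT PDZ+LPS/LPS, the lowest of the role, and at -0.49 (-0.60 to -0.38) in mut PDZ+LPS/LPS, with -0.14 after correction.

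Of the 5 translocation and export genes, all lay within 0.10 of 0 in LPS/Control. SEC61B, the small beta subunit of the translocon, had 1091 normalized counts in Control, 1049 under LPS, 1173 with WT PDZ and 1735 with mut PDZ. It was at -0.057 (-0.17 to 0.06) in LPS/Control, and its differences from LPS were 0.16 (0.04 to 0.28) with WT PDZ and 0.73 (0.61 to 0.84) with mut PDZ. SEC24D, a cargo receptor of COPII vesicles, had 758, 810, 848 and 640 in the same order, the highest of the role in LPS/Control at 0.095 (-0.04 to 0.23) and the lowest in mut PDZ+LPS/LPS at -0.34 (-0.50 to -0.18, with -0.15 corrected), and it was at 0.067 (-0.07 to 0.21) in WT PDZ+LPS/LPS. SEC61A1, the channel subunit, had 6890, 7260, 7186 and 6003 and was the one gene of the role below LPS with WT PDZ, at -0.015 (-0.06 to 0.03). SPCS3, of the signal peptidase, and SSR1, of the translocon-associated complex, were at 0.13 and 0.069 with WT PDZ. With mut PDZ they were at -0.29 (-0.13 corrected) and -0.14, and SSR1 (9669 nt) went to 0.36 after correction.

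Further genes of the same pathways were read from wider lists. Of 38 other ATF4 targets, 2 were called higher and 0 lower in LPS/Control, where 3.46% of all genes tested were called higher. These were ATF3, a stress-induced repressor, with 79.2 normalized counts in Control and 200.4 in LPS (1.33, interval 0.98 to 1.71), and GDF15, a secreted stress cytokine, with 250.7 and 600.2 (1.26, 1.06 to 1.47). The amino acid transporter SLC1A4 was the lowest at -0.50 (-0.74 to -0.27). The list had a median of 0.021 in LPS/Control, of -0.038 in WT PDZ+LPS/LPS with 26 of 38 lower (6176 of 13072 genes were) and 0 called (1.37% of genes were), and of -0.10 in mut PDZ+LPS/LPS. With mut PDZ 3 were called lower against LPS, where 1.90% of 13378 genes were. The 3 were the folate enzyme ALDH1L2 at -1.09, the cystine transporter SLC7A11 at -1.03 and the lipoprotein receptor VLDLR at -1.01, and after correction they were at -0.67, -0.60 and -0.52. CEBPB, a partner of ATF4, was the highest there at 0.67, with 0.15 after correction.

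Of 14 genes for eIF2 kinases, eIF2, eIF2B and their regulators, 0 were called in LPS/Control or in either peptide against LPS. Of all genes tested, LPS/Control had 4.87% called, and against LPS the WT PDZ library had 1.37% and the mut PDZ library 3.95%. At shares this low, 0 of 14 does not set the list apart from all genes. In LPS/Control PPP1R15B, the constitutive partner of the eIF2 phosphatase, was the highest at 0.55 (0.48 to 0.62), close to the value of PPP1R15A, and IMPACT, an inhibitor of the kinase GCN2, was the lowest at -0.23 (-0.35 to -0.11). With mut PDZ against LPS they ran from the kinase EIF2AK2 (PKR) at -0.59, with -0.09 after correction, to EIF2S2 at 0.070. Of 68 further ER folding, translocation and degradation genes, 67 averaged 16 normalized counts or more and their medians were 0.019 in LPS/Control and 0.059 in WT PDZ+LPS/LPS, where 55 of 67 were higher, against 6893 of 13072 genes. LPS/Control ran from DERL3 at -0.38 (-0.82 to 0.05) to the translocon subunit SEC61G at 0.56 (0.45 to 0.68). Of these ER genes 0 were called in LPS/Control, against 4.87% of all genes tested. The lowest in mut PDZ+LPS/LPS was MBTPS2, the protease that cuts ATF6, at -0.84 (-0.69 after correction), and CREB3L1 was called at 1.03 on 7.5 and 16.4 normalized counts, with an interval of -0.22 to 2.59.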

How the data were processed

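The authors deposited 1 table of raw read counts per gene symbol for each of 4 libraries, made from poly(A)-selected, directional paired-end libraries by trimming and by alignment with TopHat to hg19 per the submitters' processing notes. The counting tool, annotation and strand setting are not given in the sources used here. Counts were normalized here with the geometric size factors of DESeq2 1.42.0, and TMM factors came from edgeR 4.0.16. No model was fitted and no p-value was computed, since each condition had 1 library and nothing states separate cultures. Calls required a fold of 2 on normalized counts plus 1 and 16 normalized counts in at least one library. Lists were summarized over genes with a mean of at least 16 (13072 genes), and wider shares over those with a mean of at least 100 (10859). Clopper-Pearson 95% intervals used the raw counts. For the correction, trends fitted by lowess with span 0.3, first over log2 length and then over GC content of the longest protein-coding GENCODE 29 transcript, were subtracted. The steps were tested on simulated data. Full values are given for genes called in any comparison, for sensors and factors, and for the highest and lowest of each role with at least 4 genes in LPS/Control and in the comparisons of either peptide with LPS, and the other chaperones and ATF4 targets have at least 1 value. Of the wider lists the highest and lowest in LPS/Control and mut PDZ+LPS/LPS and any called gene are named. The 39 genes, roles and lists were chosen with earlier results of these data known. A planned search for protein retrieval signals was not run, since no protein sequences were used here.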

Additional observations from a re-analysis of the deposited data

Results flagged for a closer look

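ERN1 and SEL1L were flagged because the libraries of the 2 peptides lay on opposite sides of LPS with the counting intervals apart from 0, and with more than 1.5-fold between them. ERN1 was at 0.28 in WT PDZ+LPS/LPS and at -0.87 in mut PDZ+LPS/LPS, which leaves -1.15 between mut PDZ+LPS and WT PDZ+LPS. SEL1L was at 0.14 and -0.79, which leaves -0.93. With 1 library per condition the difference between the peptides was not tested. Both genes have transcripts over 4000 nt, and after the trend over length and GC content was removed their mut PDZ+LPS/LPS values were -0.46 and -0.36 and their differences between the peptides -0.72 and -0.46. The part of the length trend in these differences was not tested. Of the 39 genes, 9 lay on opposite sides of LPS with intervals apart from 0 for both peptides before correction, and HYOU1, DNAJC3, CANX, PDIA6, ATF4, SSR1 and SPCS3 were the others. The share of all genes that did so was not counted, so whether 9 is many cannot be read. Of 13072 genes, 3767 had an interval above 0 and 4475 below 0 in mut PDZ+LPS/LPS. In WT PDZ+LPS/LPS the counts were 1577 and 1316.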

How the results depend on the processing

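No paired analysis was possible because each condition had 1 library and no test was run. Every change of sign was looked for among the called genes and none was found. A called gene differs at least 2-fold, so a setting that shifts values by less could not turn its sign. Genes that were not called did change sign. With total counts 10 of the 39 were higher and 29 lower in LPS/Control, against 23 and 16 in the main setting. TMM factors, a pseudocount of 5, no expression rule and an expression rule of 64 normalized counts left each count of calls as it was. Under these settings each median of a role stayed between the median lower and the median upper bound of its members' counting intervals. Scaling by total counts moved the LPS/Control median of the chaperones to -0.11 and of the ATF4 targets to -0.15, with all genes at -0.13, and upper-quartile factors moved the chaperones to -0.043. In mut PDZ+LPS/LPS the same scalings gave the chaperones 0.20 and 0.23, and adding MANF and CRELD2 gave 0.22. Without DDIT4, SESN2 and PPP1R15A the ATF4 target median was -0.18 in WT PDZ+LPS/LPS, 0.0037 in LPS/Control and 0.050 in mut PDZ+LPS/LPS. At 3-fold, 1 gene was called higher in LPS/Control and 0 lower in mut PDZ+LPS/WT PDZ+LPS. The share of all genes at 3-fold is not given here. At 1.5-fold, 1 was called lower in LPS/Control, 2 higher and 5 lower in mut PDZ+LPS/LPS, and 1 higher and 4 lower in mut PDZ+LPS against WT PDZ+LPS. Of 13072 genes, 538 were called lower at 1.5-fold in LPS/Control. In mut PDZ+LPS/LPS 880 were higher and 1252 lower, and between the peptide libraries 944 were higher and 1384 lower. With the length and GC trend removed, the chaperone and ATF4 target medians were 0.094 and -0.22 in mut PDZ+LPS/LPS, 0.32 apart, and -0.091 and -0.17 between the peptide libraries, where 0 genes were called lower. This correction moved 31 of 39 genes in mut PDZ+LPS/LPS beyond their counting interval, 3 in LPS/Control and 0 in WT PDZ+LPS/LPS. The LPS/Control values depended more on scaling. Total counts moved 28 of 39 genes there and upper-quartile factors 14, and in mut PDZ+LPS/LPS they moved 5 and 13. In WT PDZ+LPS/LPS all 39 stayed within their interval under both scalings. Beyond the construction of each alternative, the cause of these shifts was not tested. The main limit is 1 library per condition, since intervals of counts this deep are narrow and say nothing of the spread between cultures. By their smallest library, CHAC1 (57 raw counts), DDIT3 (128) and ERN1 (201) had the fewest counts.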

Other observations

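The heat shock genes of the cytosol and mitochondria, which answer to HSF1 rather than to the ER sensors, were read beside the ER genes. Of 23 listed, 22 averaged 16 normalized counts or more, and 0 were called in LPS/Control, where 4.87% of all genes tested were, with a median of 0.040. The highest were DNAJB6 and DNAJA1, J-domain cochaperones of HSP70, at 0.66 (interval 0.60 to 0.73) and 0.61 (0.57 to 0.66), and they had 3054 and 6764 normalized counts in Control against 4842 and 10359 in LPS. HSF2, a heat shock factor, was the lowest at -0.57 (-0.75 to -0.39). In WT PDZ+LPS/LPS 16 of 22 were higher, against 6893 of 13072 genes, with a median of 0.054.

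HSPA8, the constitutive HSP70 of the cytosol, had 66359 normalized counts in Control, 69051 under LPS, 69056 with WT PDZ and 40665 with mut PDZ. It was alike in the first 3 libraries and lower with mut PDZ, at -0.76 (-0.78 to -0.75) against LPS and at -0.81 after the length and GC trend was removed, and it was the lowest heat shock gene there. HSPB1, a small heat shock protein, was the highest in mut PDZ+LPS/LPS at 0.78 (0.72 to 0.84), with 0.071 after correction. In HSPA5, the ER relative of HSPA8, the same comparison gave 0.35.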
